A study of Mus musculus with 4 samples.

Results

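The enzymes that make haem, together with the mitochondrial carrier that feeds the pathway, were examined for open chromatin in wild-type and Chd7-/- G1ER cells. The 9 genes were Alas2, Alas1, Slc25a38, Alad, Uros, Urod, Cpox, Ppox and Fech. A region of open chromatin was counted as theirs if it overlapped the span of one of these genes, or if the nearest end of any protein-coding gene, within 100 kb, was theirs. By this rule 16 of 15328 merged regions belonged to the 9 genes. ATAC-seq, in which a transposase cuts and tags accessible DNA, had been run on 50000 cells per library, with 2 wild-type and 2 Chd7-/- libraries. G1ER is a mouse erythroblast line made from Gata1-null cells, and it carries GATA1 fused to an estrogen receptor domain. All 4 libraries came from cells kept with erythropoietin and stem cell factor, and the labels give no treatment. Wild type and Chd7-/- each had a library labelled 1 h (replicate 1) and a library labelled 2 h (replicate 2). The labels do not say what this time measures. It spans the same range as the transposase reaction in the protocol, so it may be a reaction time and not a time in culture. Both Chd7-/- libraries carry the code E9, so genotype and clone cannot be told apart, and nothing in the labels says that replicates were separate cultures.

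Haem is built in a fixed order of steps that begins and ends in the mitochondrion. Slc25a38 brings glycine in, ALAS joins it to succinyl-CoA, ALAD, UROS, UROD and CPOX build and trim the ring in turn, and PPOX and FECH complete it by oxidation and insertion of iron. The opening step has a pair of isozymes, ALAS2 in erythroid cells and ALAS1 in other tissues. Several of these genes are known targets of GATA1 in erythroid cells, and Uros is known to have a housekeeping and an erythroid promoter.

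The peak lists held 11084 to 12443 nuclear peaks per library. Read totals are not in the lists. Relative depth, taken from the lowest background of each list, was lowest in wild-type replicate 1, at 73.0% of the highest, and at least 93.9% in the other libraries. Chd7 itself had 0 regions in any library, which leaves the genotype labels unchecked. Of the erythroid markers, 7 of 10 had a region called in all 4 libraries, and Tal1, Epb42 and Slc4a1 did not. Such regions were found at 0 of 8 granulocyte and macrophage markers, 0 of 6 lymphoid markers, 3 of 5 megakaryocyte markers (Pf4, Itga2b and Gp9) and 1 of 4 mast cell markers (Cpa3).

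Most haem synthesis genes had a region at a gene end. At 7 of the 9 genes a region within 1 kb of a gene end, termed gene edge, was called in all 4 libraries, against 32.0% of 21887 protein-coding genes. The exceptions were the ALAS genes, Alas2 with its region inside the gene and Alas1 with a peak in 1 library. Of the 16 regions, 10 were called in all 4 libraries (62.5%, against 56.8% of all regions), 2 in 3, 1 in 2 and 3 in 1. There were 8 at a gene edge, 6 farther inside a gene and 2 outside. Wild-type replicate 1 had 10 of them, and the others had 14, 14 and 13 (wild-type replicate 2, then knockout replicates 1 and 2). Each was called as 1 peak in every library that called it.

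**Figure D1:**
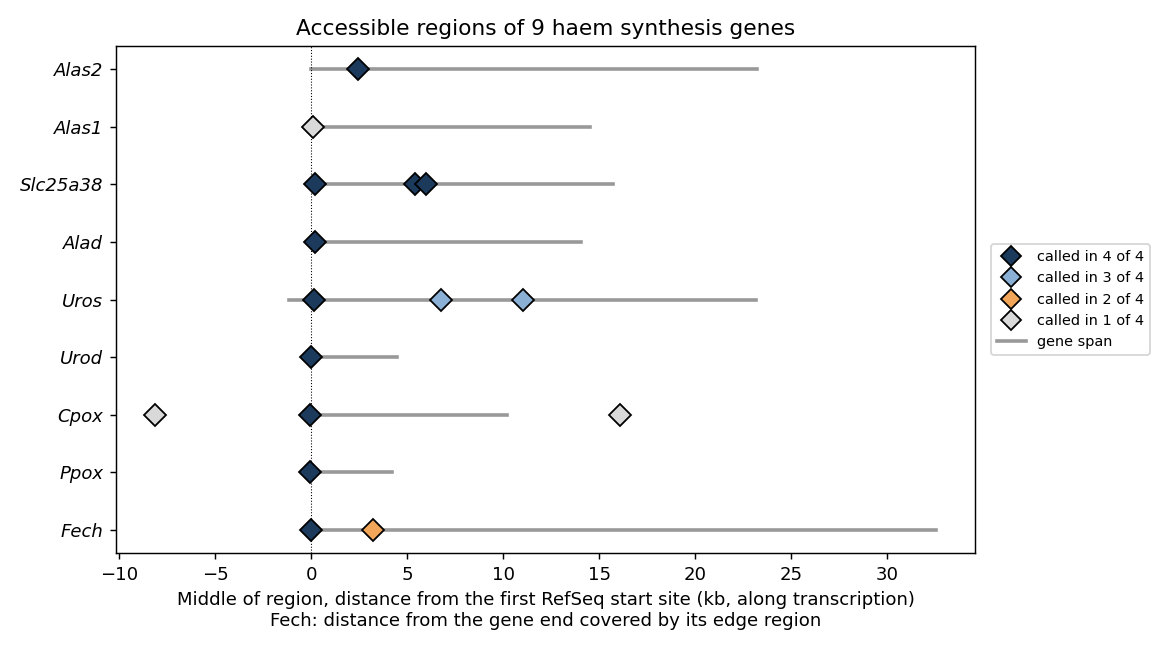
Position of the 16 regions, as the distance in kb from the first RefSeq start site along the direction of transcription, with 1 row per gene. For Fech the distance is from the gene end that its edge region covers. Diamonds are coloured by the number of libraries that called the region, and grey lines are gene spans. Dark diamonds were called in all 4 libraries. They are the 7 near 0, that 2463 bp inside Alas2 and the pair inside Slc25a38, at 5403 and 5984 bp.

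Alas2 (chromosome X, 150547417 to 150570622, GRCm38) encodes the erythroid form of the rate-limiting enzyme. Its 1 region (150549629 to 150550132) lay inside the gene, with its middle 2463 bp after the start site. Erythroid control elements are known in introns of this gene, but the gene table used here holds no exons. The region also lies within the span of Apex2, an overlapping gene. The number of fragments stacked at the peak summit, termed pileup, was 16 and 21 in the wild-type libraries (replicate 1, then 2, here and below) against 27 and 17 in the knockout libraries. Knockout replicate 1 was the highest, and the other 3 lay between 16 and 21, so the genotypes overlapped. The summits lay within a narrow stretch, 2402 to 2486 bp after the start. Fold enrichment over local background, as given by the authors' peak caller for each list, was 9.04 and 10.6 in wild type against 11.97 and 8.91 in knockout. Its percentile within its own list ranged from 58.8 to 86.2, and 86.2 was the highest single percentile among the 16 regions. In such bulk samples, a site open in fewer cells and a site less open per cell cannot be told apart.

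No peak covered the start of Alas2 in any library. Its promoter (RefSeq, GRCm38.p6, 250 bases before to 50 after the start, chrX:150547167-150547466, plus strand) is printed because it holds an erythroid motif without a called peak. Capitals mark matches to the GATA-factor words, which are AGATAA, its close relative AGATAG, and the same with a leading thymine (TGATAA and its relative TGATAG), on either strand, read 5′ to 3′ along the gene.

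Alas2 promoter: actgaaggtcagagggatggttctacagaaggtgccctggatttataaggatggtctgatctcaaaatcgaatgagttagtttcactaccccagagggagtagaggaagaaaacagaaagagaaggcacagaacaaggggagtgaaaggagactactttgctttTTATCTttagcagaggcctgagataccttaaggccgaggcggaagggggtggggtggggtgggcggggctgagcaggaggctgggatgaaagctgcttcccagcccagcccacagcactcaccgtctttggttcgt

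Its only GATA word, TTATCT, which is AGATAA on the other strand, starts 86 bases before the start site. The promoter also held 4 overlapping or adjacent matches to CCNCNCCC, the word of Kruppel-like factors such as KLF1, between 42 and 26 bases before the start. At least 1 such match occurs in 56.6% of 21263 protein-coding promoters of the table and is therefore a weak description. Among promoters overlapped by a region called in all 4 libraries the share was 73.4%. It was also in 10 of the 11 promoters listed for the haem synthesis genes, and 1 of those of Alad held 4.

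Alas1 (chromosome 9, 106233455 to 106247954) encodes the housekeeping form of the same enzyme. Its start had 1 region of 239 bp (106247725 to 106247963), called in knockout replicate 1 alone with a pileup of 10, fold enrichment of 4.91 and −log10 q of 4.16. The other 3 libraries had no peak there. In those lists the lowest pileup called at a like background (within 0.25 fragments) was 6 or 7, so weaker signal would not appear as a peak. The absence of a call is not a test between genotypes.

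The Alas1 promoter (chr9:106247905-106248204, minus strand) is shown beside that of Alas2 because both encode the same step. Its capitals mark GCATGCGC, the word of NRF1, a factor of genes for mitochondrial proteins. The word matches on both strands of an overlapping stretch.

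Alas1 promoter: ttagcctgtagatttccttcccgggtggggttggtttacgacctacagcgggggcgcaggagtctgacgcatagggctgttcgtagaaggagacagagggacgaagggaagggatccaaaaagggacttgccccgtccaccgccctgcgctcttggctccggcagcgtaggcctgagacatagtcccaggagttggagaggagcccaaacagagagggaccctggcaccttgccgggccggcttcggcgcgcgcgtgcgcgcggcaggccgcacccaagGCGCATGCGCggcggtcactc

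The NRF1 word occurs in 3.5% of all protein-coding promoters and in 7.6% of the 6573 that were overlapped by a region called in all 4 libraries. Alas1 was the only one of the 8 genes with a promoter entry to hold it, and it held no GATA word. The share of G and C was 65.3% in the Alas1 promoter and 52.3% in that of Alas2, against a median of 56.3% over all promoters. The ratio of observed to expected CpG was 0.85 and 0.32 in the same order, against a median of 0.57. These Alas1 values are for the printed promoter. RefSeq lists another Alas1 start 224 bp farther in, with 73.3% G and C and a CpG ratio of 1.1 in its promoter.

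Slc25a38 (chromosome 9, 120110377 to 120126093), the glycine carrier, had 3 regions, all called in every library. At the start (120110230 to 120110986), the widest of the 16 at 757 bp, the pileup was 29 and 33 in wild type against 29 and 16 in knockout. Knockout replicate 2 was lowest by far, and knockout replicate 1 equalled wild-type replicate 1. A pair of regions lay farther inside. At 5403 bp from the start (120115594 to 120115977) the pileup was 15 and 32 in wild type against 22 and 19 in knockout, so the wild-type libraries enclosed both knockout libraries. At 5984 bp (120116154 to 120116579) it was 15 and 24 in wild type against 18 and 19 in knockout, again enclosed by wild type. In both of these inner regions wild-type replicate 1, the library with the lowest background, had the lowest pileup.

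Alad (chromosome 4, 62505984 to 62520063) encodes the enzyme that joins 2 molecules of aminolevulinate into a pyrrole. Its 1 region (62519653 to 62520113) covered both start sites that RefSeq lists, and had the weakest enrichment of the regions called in all 4 libraries. The pileup was 18 and 25 in wild type against 18 and 16 in knockout. Fold enrichment was 4.73 and 5.02 in wild type against 3.64 and 3.71 in knockout, at percentiles 5.58, 11.1, 0.860 and 0.765 of the respective lists. The −log10 q was 6.17 and 9.09 in wild type against 4.04 and 3.68 in knockout. The background at the summit was 3.02 and 4.18 fragments in wild type against 4.22 and 3.58 in knockout. The peak thus lay close to the bottom of both knockout lists.

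Uros (chromosome 7, 133686142 to 133710467) encodes the enzyme that closes the tetrapyrrole ring. Its edge region (133708781 to 133709490) was called in all 4 libraries, with a pileup of 19 and 23 in wild type against 18 and 12 in knockout. Both knockout libraries lay below both wild-type libraries, the nearest by 1 fragment. The spans of Uros and Bccip overlap by 1135 bp at this end, so the region cannot be assigned to 1 of the genes. RefSeq also lists a start 6795 bp farther in, and 1 of the inner regions (133702324 to 133702754) lay over it. Its summits were 118, 7 and 19 bases before that start in wild-type replicate 2 and knockout replicates 1 and 2. The pileup there was 15, 14 and 13 in that order, with fold enrichments of 5.0, 4.34 and 5.0. Wild-type replicate 1 had no peak. The third region (133698063 to 133698464) was called in the same 3 libraries, with a pileup of 16, 16 and 12. In the list of wild-type replicate 1 the lowest pileup called at backgrounds of 1.55 to 2.77 fragments was 9, a minimum over that range.

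The inner start of Uros (chr7:133702451-133702750, minus strand) and the outer one (chr7:133709246-133709545, minus strand) are printed to compare a weakly open, GATA-bearing promoter with a CpG-rich one of the same gene. Capitals again mark GATA words.

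Uros inner promoter: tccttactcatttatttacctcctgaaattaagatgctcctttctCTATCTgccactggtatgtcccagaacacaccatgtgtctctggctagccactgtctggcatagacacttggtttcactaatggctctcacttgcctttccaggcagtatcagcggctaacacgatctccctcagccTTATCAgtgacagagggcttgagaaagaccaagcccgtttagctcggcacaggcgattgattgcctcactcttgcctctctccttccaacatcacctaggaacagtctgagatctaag

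Uros outer promoter: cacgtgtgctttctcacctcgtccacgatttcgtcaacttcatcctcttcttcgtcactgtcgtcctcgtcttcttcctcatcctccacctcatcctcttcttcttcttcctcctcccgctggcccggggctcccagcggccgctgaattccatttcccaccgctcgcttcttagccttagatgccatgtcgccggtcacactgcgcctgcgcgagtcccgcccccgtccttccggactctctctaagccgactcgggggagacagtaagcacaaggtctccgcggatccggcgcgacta

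The inner promoter held 2 GATA words, 205 and 68 bases before its start, and the outer one held 0. Both words lay inside the called region. The nearer word was 52, 59 and 47 bases from the summits of wild-type replicate 2 and knockout replicates 1 and 2. The observed to expected CpG ratio was 0.30 in the inner and 1.16 in the outer promoter, the lowest and the highest of the 11 entries.

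Urod (chromosome 4, 116989965 to 116994436) encodes the decarboxylase that follows. Its region (116994259 to 116994608) covered the start, with a pileup of 15 and 19 in wild type against 17 and 23 in knockout, so the genotypes overlapped. Fold enrichment was 7.02 and 7.04 in wild type against 7.63 and 9.02 in knockout. The region is also within 1 kb of Hectd3, whose span lies 687 bp beyond it. Its promoter held the 1 match among the 11 entries to TGTGGT, the word of RUNX factors, which 15% of all protein-coding promoters hold. It also held the 1 match to CAGATG, an E-box word of TAL1 (14.6% of all promoters).

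Cpox (chromosome 16, 58670208 to 58680391) encodes coproporphyrinogen oxidase of the mitochondrial intermembrane space. Its start region (58669874 to 58670457) was among the strongest, with a pileup of 31 and 39 in wild type against 34 and 37 in knockout, and knockout lay within the wild-type range. Its percentiles were 64.2 to 75.6. A pair of weaker regions outside the gene, at 58661875 to 58662265 and 58686209 to 58686408, were called in wild-type replicate 2 alone, with pileups of 18 and 12. They lay 8138 and 5917 bp from the nearest end of Cpox.

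The Cpox promoter (chr16:58669958-58670257, plus strand) is printed because its GATA words sit under a region that every library called. Capitals mark GATA words.

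Cpox promoter: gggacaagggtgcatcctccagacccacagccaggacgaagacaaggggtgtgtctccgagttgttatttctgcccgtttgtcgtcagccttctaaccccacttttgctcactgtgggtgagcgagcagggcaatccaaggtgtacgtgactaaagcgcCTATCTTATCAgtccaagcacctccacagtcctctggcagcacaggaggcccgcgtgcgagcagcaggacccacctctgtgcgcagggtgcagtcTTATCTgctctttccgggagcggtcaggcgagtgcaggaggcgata

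It held 3 GATA words, of which 2 overlap by 1 base. They begin 91 and 86 bases before the start and at base 5 of the transcript. All 3 were inside the region, and in each library the nearest was 9 to 40 bases from the summit. At least 3 such words occur in 1.43% of all protein-coding promoters and in 0.30% of those open in all 4 libraries, a count chosen after the Cpox sequence had been seen. A GATA word of any number occurs in 26.0% and 15% in the same order.

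Ppox (chromosome 1, 171276991 to 171281193) encodes protoporphyrinogen oxidase. Its start region (171280896 to 171281625) was close to constant, with a pileup of 32 and 36 in wild type against 32 and 33 in knockout. Fold enrichment was 10.9 and 9.59 in wild type against 9.02 and 9.34 in knockout. The span of Usp21 lies 323 bp beyond it, so the region is within 1 kb of both genes. Its promoter held 4 matches to CCAAT, the NF-Y word, between 114 and 45 bases before the start, and 0 GATA words. CCAAT occurs in 38.2% of all promoters.

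Fech (chromosome 18, 64456542 to 64489098) encodes ferrochelatase, which inserts iron. It had an edge region (64488920 to 64489294) and the 1 region of the 16 that was called in both libraries of a genotype and neither of the other. A further 3 regions, at Alas1 and Cpox, had a peak in 1 library only. At the edge the pileup was 35 and 28 in wild type against 29 and 22 in knockout, which overlap by 1 fragment. The other region (64485712 to 64486008), 3238 bp from that end and inside the gene, had a peak in each knockout library and none in wild type. Its pileup was 17 and 19 in knockout replicates 1 and 2, with fold enrichments of 4.50 and 5.78 and −log10 q of 5.47 and 8.39. In both wild-type lists the lowest pileup called at backgrounds of 2.21 to 3.25 fragments was 11, so signal below about that level would not appear as a peak. That value is a minimum over the range, so signal above it could also have gone uncalled.

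**Figure D2:**
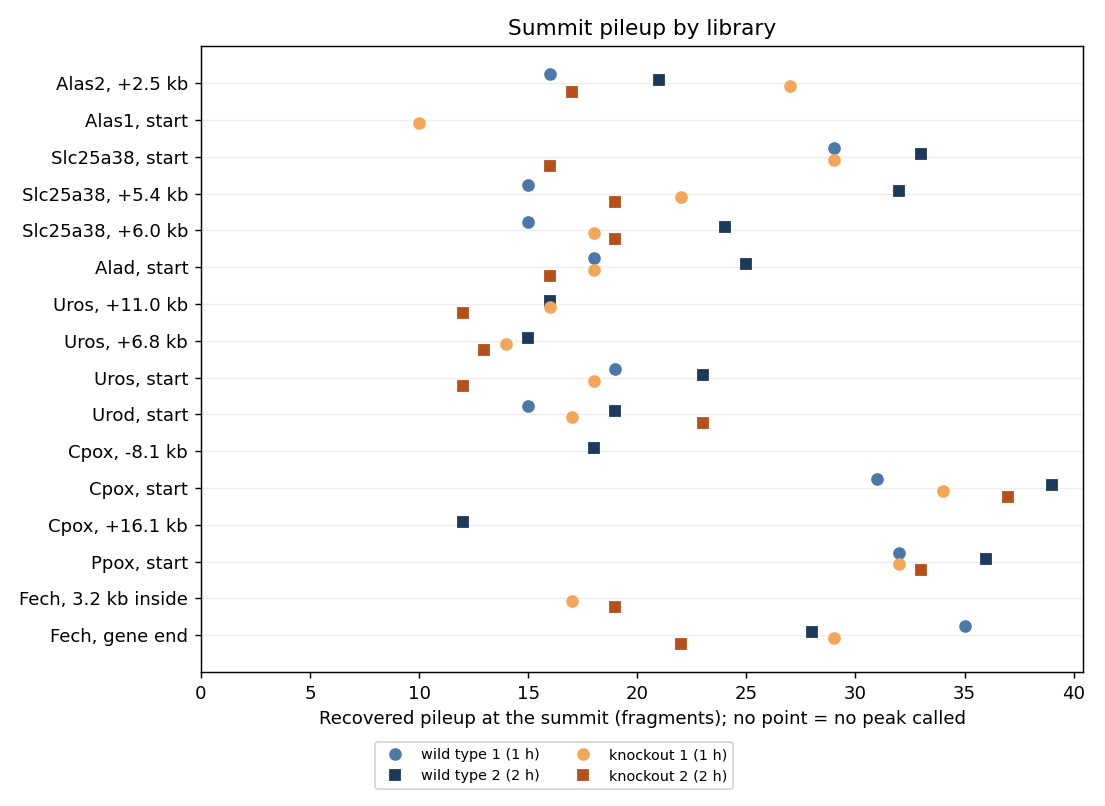
Recovered pileup at the summit in fragments (horizontal axis) for each of the 16 regions (rows) and library. Blue points are wild type and orange points knockout, circles are replicate 1 (1 h) and squares replicate 2 (2 h), and a missing point is a library with no peak. The starts of Cpox and Ppox sit between 31 and 39 in every library.

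Of all 15328 regions, 2.71% had a peak in each knockout library and none in wild type, and 1 of the 16 haem synthesis regions was, that at Fech. The converse class, called in wild type alone, held 2.25% of all regions and 0 of the 16. The Fech region stayed in its class when −log10 q of at least 5 was required, with lists of equal length and with windows around summits. In these settings the knockout-only class held 0.985% to 2.77% of all regions. With −log10 q of at least 5 in all lists, the Alad start also became exclusive to wild type. Both its knockout peaks fall below that value. In that setting 387 of 12908 regions were exclusive to wild type. Without wild-type replicate 2 the count for knockout was 3, with both inner Uros regions added, and without knockout replicate 2 it was 2, with Alas1 added. The share of all regions in that class was higher as well, at 6.58% and 11.4% in the same order. Without wild-type replicate 1 the count for wild type was 2, both at Cpox, against 8.30% of all regions.

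Knockout and wild type were then compared over the 8704 regions called in all 4 libraries, with limma on log2(pileup + 1) centred on each library's median. Of the 10 haem synthesis regions tested, 0 passed an adjusted p of 0.05, and 0 had an unadjusted p below 0.05. Over all regions 0% passed in either direction (smallest adjusted p = 0.213 by limma), and 8.70% had an unadjusted p below 0.05. The unadjusted count among the 10 was 2 when libraries were scaled by their lowest background (the starts of Slc25a38 and Uros, against 13.5% of all regions). It was 3 without knockout replicate 1 (the same starts and that of Urod, against 8.04%). The fitted difference was below 0 at 5 of the 10, against 46.5% of all regions, and its median was 0.00 for the 10 and 0.02 for all.

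The lowest fitted differences, knockout minus wild type in log2 units, were at the starts of Slc25a38 and Uros. That of Slc25a38 was −0.42 (SE 0.23; 95% interval −0.94 to 0.11; limma adjusted p = 0.665), and it moved to −0.09 without knockout replicate 2 and −0.74 without knockout replicate 1. That of Uros was −0.40 (SE 0.20; 95% interval −0.85 to 0.05; limma adjusted p = 0.625), and it moved to −0.21 and −0.59 in the same order. At the edge of Alad it was −0.23 (SE 0.19; 95% interval −0.65 to 0.20), −0.11 without wild-type replicate 2 and −0.34 without wild-type replicate 1. With fold enrichment in place of pileup the Slc25a38 start was at −0.12, Uros at −0.32 and Alad at −0.34, so the order changed. The centred values of both knockout libraries lay below both wild-type libraries at these 3 of the 10 regions, an arrangement found in 17.3% of all regions. The converse arrangement was seen at 0 of the 10, against 21.4%. At Fech the edge region gave −0.22 (95% interval −0.72 to 0.28), and without wild-type replicate 1 it was 0.05.

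The highest differences were at the start of Urod (0.30; 95% interval −0.21 to 0.80) and the inner region of Alas2 (0.30; 95% interval −0.18 to 0.77). Without knockout replicate 1 the Alas2 value was 0.06, and without knockout replicate 2 the Urod value was 0.01. The starts of Cpox (0.11; −0.33 to 0.54) and Ppox (0.02; −0.40 to 0.44) were the closest to 0 among the gene edges. The inner regions of Slc25a38 gave −0.02 (−0.61 to 0.57) and 0.04 (−0.43 to 0.52). The upper or lower bounds therefore allow differences of up to 0.94 in log2 units, and a p above the threshold does not show that the genotypes act alike. In simulated pileups with 2 libraries per genotype, 95 of 100 regions changed by 2 log2 units were called, but 15 of 100 changed by 1 unit. The simulation assumed a replicate spread and dropped no region for a low pileup. A real region that lost its peak in a list was not tested, so these rates do not cover such losses.

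**Figure D3:**
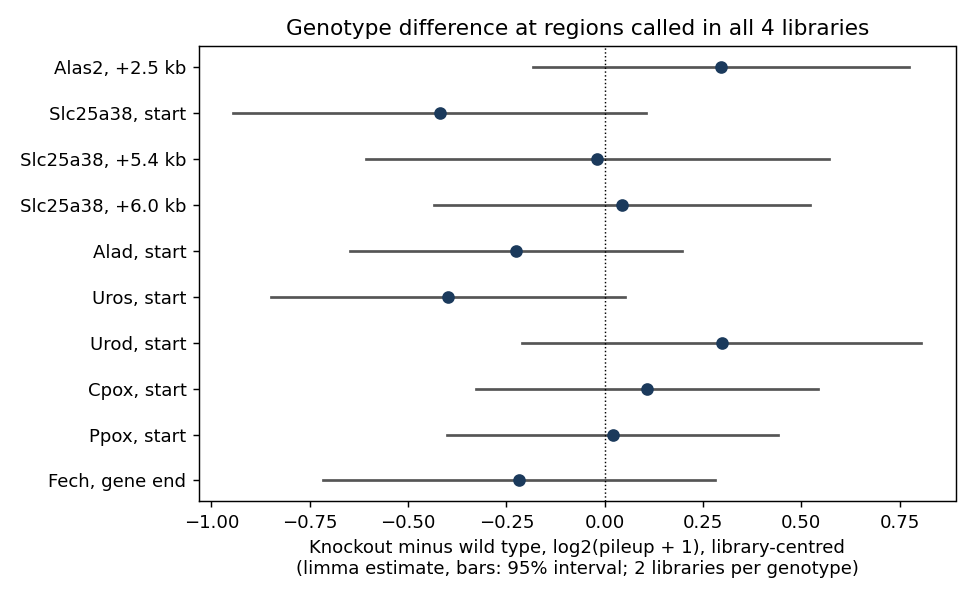
Knockout minus wild type in centred log2(pileup + 1) at the 10 regions called in all 4 libraries, with points for the limma estimate and bars for the 95% interval (2 libraries per genotype). Every bar crosses 0, and the estimates run from −0.42 at the Slc25a38 start to 0.30 at the Urod start.

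The gene-edge regions of haem synthesis were mostly weaker than the median open gene end. Taking for each region the lowest percentile of fold enrichment over the libraries, the 7 gene-edge regions called in all 4 libraries had a median of 26.2, against 55.7 for all 5951 such regions. The starts of Cpox and Ppox, at 64.2 and 64.3, were above the median of all such regions, and the other 5 edge regions were below it. The 3 inner regions called in all 4 libraries were at 58.8 (Alas2), 6.72 and 15.1 (Slc25a38), against a median of 32.3 for the 2754 regions away from gene ends. Median width was 482.5 bp for the 10 regions and 635 bp for all regions called in all 4 libraries.

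**Figure D4:**
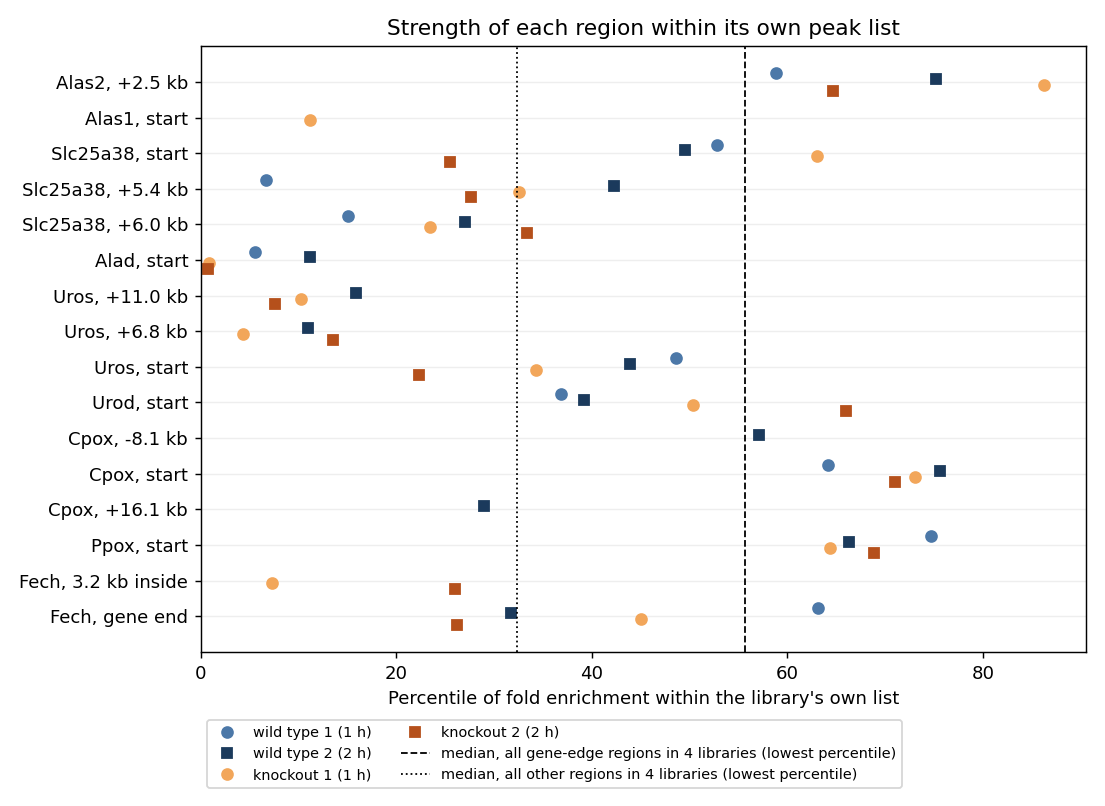
Percentile of the deposited fold enrichment within each library's own list (horizontal axis) for the 16 regions (rows), with colours and shapes for genotype and replicate. Vertical lines are the medians of the lowest percentile for all gene-edge regions (dashed, 55.7) and all other regions (dotted, 32.3) called in all 4 libraries. Alas2, Cpox and Ppox lie to the right of the dashed line in every library, and Alad lies at the far left.

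RefSeq promoter entries were found for 8 of the 9 genes, Fech being the other, and gave 11 promoters, of which 7 were overlapped by a region called in all 4 libraries (30.9% of all protein-coding promoters were). GATA words were held by 3 of the 11, those of Alas2, Cpox and the inner start of Uros, close to the 26.0% of all promoters. The same 3 had the lowest CpG ratios, 0.32, 0.58 and 0.30, while the other 8 ranged from 0.69 to 1.16. Of these 3, Cpox was covered in all 4 libraries, the inner Uros start in 3 and Alas2 in 0. The SP1 word GGGCGG was in 8 of the 11, against 46.2% of all promoters and 73.9% of those open in all 4 libraries. The ETS word CCGGAAG was in 3 (11.6% and 25.1% in the same order). TGANTCA, the word shared by AP-1, NFE2 and BACH factors, was in 0 (7.0% and 3.3%). A match to such letters is a description and does not show binding.

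Around the pathway, 37 genes of haem transport and breakdown, mitochondrial iron supply and their regulation had 59 regions. Of these, 42 were called in all 4 libraries, against 56.8% of all regions. By limma 0 of these 42 passed an adjusted p of 0.05, and 3 had an unadjusted p below 0.05, against 8.70% of all regions. Among the 59, 2 were knockout-only and 1 was wild-type-only, near the shares of 2.71% and 2.25% over all regions. The knockout-only regions were at Aco1, which encodes the iron-responsive protein IRP1, and near Slc6a9, a glycine transporter gene. The wild-type-only region was at Abcb6, a porphyrin transporter gene. The Aco1 region (chromosome 4, 40178637 to 40178931) had a pileup of 10 in each knockout library, the Slc6a9 region (chromosome 4, 117806751 to 117807275) of 14 and 11, and the Abcb6 region (chromosome 1, 75179350 to 75179831) of 13 in each wild-type library. The strongest regions were at the edges of Slc25a28, a mitochondrial iron carrier, Blvrb, a biliverdin reductase, Fam210b and Lonp1, a mitochondrial protease. Their lowest percentiles were 90.9, 89.3, 88.1 and 84.1, each above that of all 16 haem synthesis regions. The pileup at Slc25a28 was 58 and 69 in wild type against 61 and 65 in knockout.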

How the data were processed

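Each library came as 1 deposited peak list, called separately. The peak names give MACS2 and the build GRCm38, and the submitters' processing notes list Bowtie2 2.2.1 and MACS2 2.1.0. The cutoff, a control, the transposase shift and duplicate handling were not stated in the labels or files. Per peak, the authors deposited a score (about 10 times −log10 q), a fold enrichment ratio at the summit, a −log10 p and a −log10 q. The deposited summit offset in bases is another column.

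Only nuclear chromosomes were kept. Fold enrichment was read as (pileup + 1) / (background + 1), and together with the Poisson −log10 p it fixed a whole-number pileup for 99.99% of peaks per library (tolerance 0.001). Pileups are comparable only if no rescaling was done by the caller. Overlapping or touching peaks were merged. Gene spans and ends came from a RefSeq table of GRCm38.p6 without exons, and start sites and strand from its promoter table. Pileups were compared with limma 3.58.1 (R 4.3.3) over 8704 regions, with Benjamini-Hochberg adjustment. Python 3.11.15 with numpy 2.4.6, pandas 2.3.3 and scipy 1.17.1 did the rest. Recovery and the limma step were tested on simulated data.

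All 9 genes were named, with each gene's strongest region, its edge region and any region exclusive to a genotype in full. Of the context list, genes with an exclusive region and the 4 with the strongest regions were named. The genes and lists were chosen with earlier results of these data known. Alternatives were another pseudocount, scaling or filter, fold enrichment in place of pileup, stricter or equal-length lists, summit windows, other link and edge distances, a replicate block and leaving out each library. With 2 libraries per genotype, p-values measure the spread between these libraries, which may be technical.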

Additional observations from a re-analysis of the deposited data

Results flagged for a closer look

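At 4 of the 10 regions called in all 4 libraries the knockout library was above wild type at one labelled time and below it at the other, in centred log2(pileup + 1). What the labelled time measures is not given, and it may be the transposase reaction time. With 1 library per genotype and time this difference was not tested, and such opposite signs were found at 45.5% of all 8704 regions. At the Alas2 region the knockout minus wild-type difference was 0.61 at 1 h and −0.02 at 2 h. At the Slc25a38 region 5403 bp from the start it was 0.41 at 1 h and −0.45 at 2 h. At the Slc25a38 region 5984 bp from the start it was 0.14 at 1 h and −0.05 at 2 h. At the Ppox start it was −0.11 at 1 h and 0.15 at 2 h.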

How the results depend on the processing

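The 10 regions stayed above an adjusted p of 0.05 by limma wherever they were tested under the 11 alternatives (0.212 to 0.9996). A mean pileup of at least 20 left 6 of the 10 to test. Of the 6 tested throughout, 2 kept their sign (Alas2 and the Slc25a38 start), and of the other 4, 3 kept it under the remaining 10 alternatives (Alad, Uros and Urod). Scaling by the lowest background moved the median of all regions from 0.02 to −0.21, and 5 regions of the series then passed upward and 65 downward, against 0 in both directions. Under that scaling the Slc25a38 region at 5984 bp was −0.18, Cpox −0.12 and Ppox −0.21, of which the last lies at the shifted median. With fold enrichment in place of pileup the Slc25a38 region at 5403 bp was 0.10 and Ppox −0.082. Leaving out 1 library at a time gave −0.43 to 0.40 for the Slc25a38 region at 5403 bp, −0.17 to 0.26 for that at 5984 bp, −0.036 to 0.253 for Cpox, −0.086 to 0.126 for Ppox and −0.481 to 0.045 for Fech. The knockout-only count ranged from 1 to 3 and the wild-type-only count from 0 to 2 when a library was left out, since that removes a required call or absence. Requiring −log10 q of 5 or more for all peaks, there was 1 wild-type-only region of haem synthesis, at Alad, against 387 of 12908 regions of the series. The replicate number also marks the labelled time, and deviations of same-numbered libraries were uncorrelated across regions (r = 0.00216 over 8704 regions), so the numbers were not taken as pairs. With the replicate block 0 of the 10 regions passed, and 2 regions of the whole series did. Among the 10 regions, 5 were below 0 (46.5% of all regions were). That number was 8 when scaled by the lowest background and 8 without knockout replicate 2, against 80.4% and 48.9% of all regions. The count at an unadjusted p below 0.05 ranged from 0 to 3 among the 10 and from 0 to 3 among the 42 regions around the pathway. Over all 8704 regions it was 757, against 1173 when scaled by the lowest background and 489 without wild-type replicate 1. Total depth was unknown.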
